A study of Mus musculus with 10 samples.

Results

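The 10 genes examined here act in glutathione synthesis and in the thioredoxin system, and were followed in mouse hearts from which the ESCRT-III subunit gene Chmp4b was to be deleted. They were the genes named Gclc, Gclm, Gss, Gsr, Slc7a11, Txn1, Txnrd1, Srxn1, Txnip and Glrx, 10 of 55858 genes in the deposited table, and each symbol stood on 1 row. The genes were selected on their TPM values in cKO and control hearts, which were known when the list was drawn up, so the group differences in these 10 genes are given as a description and without p-values. RNA was sequenced from whole hearts of 10 mice at postnatal day 10, with 5 libraries per group. All mice carried the genotype labelled MCM; Chmp4bF/F. The cKO mice received tamoxifen at 0.1 mg/g under the skin on 2 days starting at postnatal day 0, and the control mice received corn oil. MCM is not spelled out in the labels, and neither the cell type in which it acts nor the deleted stretch of Chmp4b is given there. Because no group received tamoxifen without the floxed alleles, exposure to the drug and loss of Chmp4b cannot be told apart.

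Glutathione is a tripeptide of glutamate, cysteine and glycine that serves as the main soluble thiol of cells. It is made in consecutive steps by glutamate-cysteine ligase and glutathione synthetase, is oxidised when it reduces peroxides, and is restored by glutathione reductase with NADPH. The thioredoxin system runs in parallel. Thioredoxin reduces disulfides in proteins and peroxiredoxins, thioredoxin reductase restores it with NADPH, and Txnip binds thioredoxin and restrains it. In mouse and human cells many of these genes are targets of NRF2, a transcription factor held in check by KEAP1 that binds antioxidant response elements, while Slc7a11 is also a target of ATF4 and Txnip of the glucose-sensing factors MondoA and ChREBP.

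Positions of genes are those of GENCODE M21 on build GRCm38. Chmp4b (ENSMUSG00000038467.16, chr2:154651705-154694785, plus strand) had 38.2 ± 1.42 TPM in cKO hearts and 47.4 ± 8.61 TPM in control hearts (SD, n = 5 each), a log2 difference of -0.29 (two-sided exact permutation p = 0.0476). The groups overlapped, and with 1 library left out that exact p lay between 0.0556 and 0.0952 in 8 of 10 cases. TPM is a length-normalised share of a fixed total, and transcripts of genes named mt- took 35.5% to 41.5% of it in cKO libraries and 50.0% to 59.4% in control libraries. The median of the 13282 tested genes stood 0.63 higher in cKO hearts on the log2 scale, and 0.28 higher when TPM was closed again to the full total without mt- genes. Values are given below as deposited and also scaled, that is, divided by 1 factor per library (the median ratio over genes), which puts them relative to the median gene. Scaled, Chmp4b was at 29.3 ± 1.37 in cKO and 60.5 ± 6.47 in controls (SD, n = 5 each), a log2 difference of -1.04 with an exact permutation p of 0.00794, the lowest that 5 against 5 hearts can give. The cardiomyocyte markers Myh6, Tnnt2, Tnni3, Actc1, Ryr2, Pln, Mybpc3 and Nkx2-5 were present in every library, at a summed 18199.9 to 20481 TPM in cKO and 20215 to 24695 TPM in control hearts. All 5 control libraries and cKO replicates 3 and 6 held RNA of the Y-linked gene Ddx3y, whereas cKO replicates 1, 5 and 7 held Xist RNA instead.

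The upstream sequences show which known control motifs these genes carry. RefSeq promoters (build GRCm38.p6) were matched for 8 of the 10 genes, and the 250 bases before each start site were searched on both strands. Shown are the genes whose windows held the motifs for which the family is known, written 5′ to 3′ on the strand of the gene, with matches in capitals. Capitals mark an antioxidant response element core in Gclm, an AP-1 site and an AP-1-type antioxidant response element in Srxn1, a pair of C/EBP-ATF response elements in Slc7a11, and a repeat of the E-box-like motif that makes up carbohydrate response elements in Txnip. For Txnrd1 only 29 bases around the element core in the second of its 3 promoters are shown.
Gclm (chr3:122245307-122245556, plus strand): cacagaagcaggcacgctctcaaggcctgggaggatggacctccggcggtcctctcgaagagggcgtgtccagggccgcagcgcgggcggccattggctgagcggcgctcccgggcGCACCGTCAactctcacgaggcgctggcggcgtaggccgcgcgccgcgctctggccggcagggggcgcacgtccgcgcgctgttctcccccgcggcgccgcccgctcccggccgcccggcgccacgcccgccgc
Txnrd1 (chr10:82859104-82859132, plus strand): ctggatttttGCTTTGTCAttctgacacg
Srxn1 (chr2:152105274-152105523, plus strand): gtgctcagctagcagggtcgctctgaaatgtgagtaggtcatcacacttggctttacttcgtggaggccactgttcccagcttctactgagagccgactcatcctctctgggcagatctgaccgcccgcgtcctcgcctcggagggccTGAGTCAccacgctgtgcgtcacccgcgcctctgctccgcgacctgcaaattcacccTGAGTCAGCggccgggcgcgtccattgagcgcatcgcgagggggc
Slc7a11 (chr3:50443614-50443863, minus strand): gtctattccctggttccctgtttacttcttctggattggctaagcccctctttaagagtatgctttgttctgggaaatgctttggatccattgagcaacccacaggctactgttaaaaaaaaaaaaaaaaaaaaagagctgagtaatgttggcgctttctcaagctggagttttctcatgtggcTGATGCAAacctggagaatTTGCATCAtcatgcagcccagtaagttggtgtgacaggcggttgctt
Txnip (chr3:96557707-96557956, plus strand): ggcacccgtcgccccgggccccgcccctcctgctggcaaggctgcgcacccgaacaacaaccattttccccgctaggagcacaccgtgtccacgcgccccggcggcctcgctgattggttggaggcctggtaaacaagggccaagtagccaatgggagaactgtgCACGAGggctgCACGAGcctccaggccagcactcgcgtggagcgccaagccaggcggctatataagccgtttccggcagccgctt

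The core TGACNNNGC lay on the reverse strand in Gclm, from position -134 to -126 before the start site, and in Txnrd1 from -92 to -84. It was found in 2 of 8 members, in Txnrd1 in 1 of its 3 windows, and in 10.2% of the 32851 promoter windows of the same length. The member count is by gene over all its windows and the share is by single window, so they are not like for like. Srxn1 held TGANTCAGC from -45 to -37, a motif in 1.02% of windows. Its first 7 bases are themselves the palindromic AP-1 site TGANTCA (6.75% of windows), which also occurred in Srxn1 from -102 to -96 and in Glrx. Slc7a11 held TGATGCAA, found in 0.791% of windows, from -66 to -59 and on the reverse strand from -47 to -40. In Txnip the motif CACGAG occurred from -85 to -80 and from -74 to -69, with 5 bases between the copies. This motif was in 5.37% of windows and once in Gclm, from -120 to -115. The windows of Gss and Txn1 held none of the motifs searched, and the E-box CACGTG (6.02% of windows) was in no member's window. A match describes letters only and was not tested for binding.

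Of the 9 members that passed the filter of 1 TPM in 5 libraries, all 9 were higher in cKO hearts as deposited, and the cKO and control values of each did not overlap. Limma on log2(TPM + 1) called all 9 at a Benjamini-Hochberg adjusted p under 0.05. On the same scale 76.5% of all tested genes were called higher and 62.5% were higher without overlap, so this count stood on a background that was itself mostly higher (80.0% called in either direction, 3.46% called lower, 1.92% lower without overlap). After scaling, 8 of 9 members were called higher, against 20.8% of all tested genes, and 1, Glrx, was called lower, also against 20.8% (41.6% in either direction). The 8 higher members did not overlap between groups after scaling, as was so for 15.8% of all tested genes (15.5% were lower without overlap). Scaled log2 differences of at least 1 were found for Srxn1, Gclm, Txnrd1, Gsr and Txn1, and for 3.33% of all tested genes (3.21% with a call). The median log2 difference of the 9 members was 2.13 as deposited and 1.40 scaled, beside 0.63 and 0.01 over all tested genes. Nothing is read from these counts and medians, since the contrast chose the genes. The summed level of the 10 genes ran from 874 to 1131 TPM in cKO and from 176 to 313 TPM in control libraries.

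**Figure D1:**
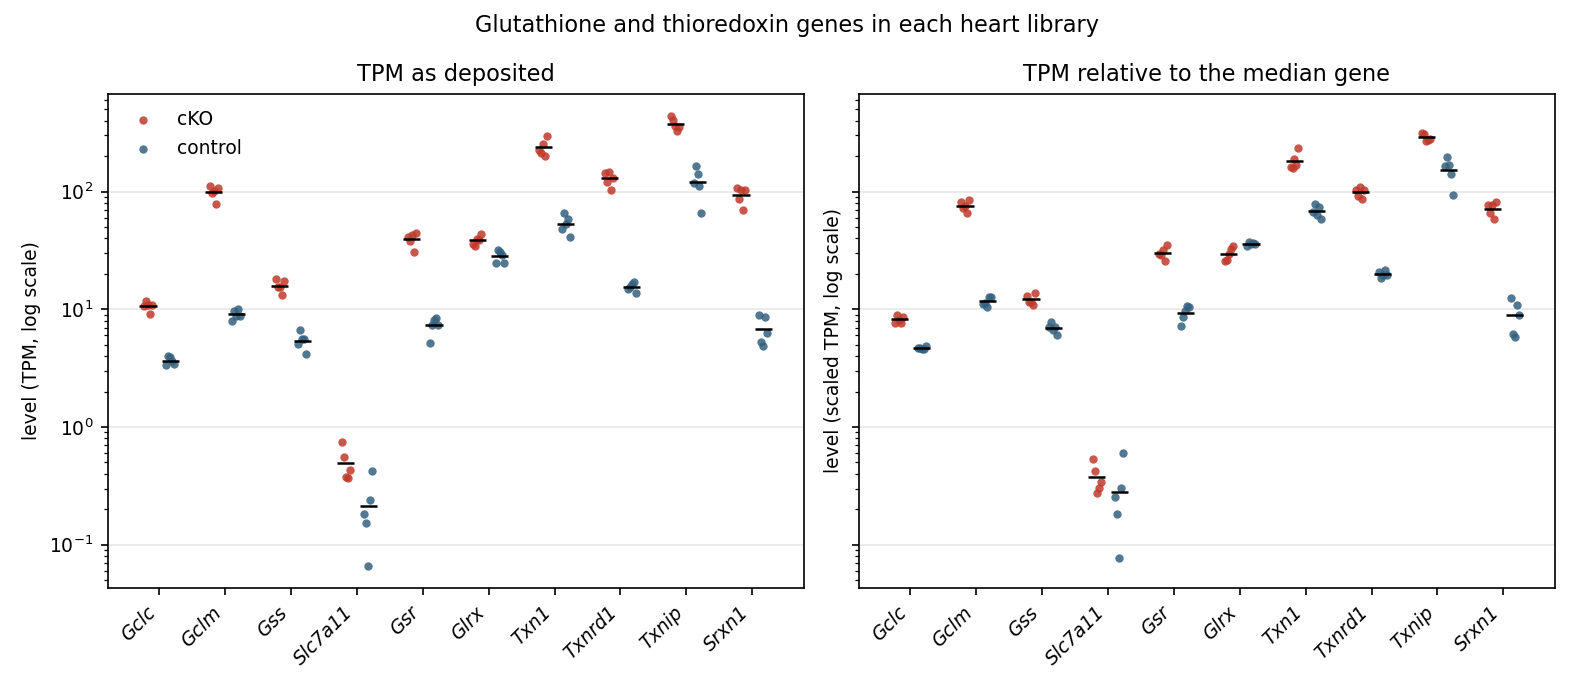
Level of each of the 10 genes in every library on a log axis, in TPM as deposited (left) and divided by the size factor of the library (right). Points are libraries, 5 cKO (red) and 5 control (blue), and bars are group means. As deposited, only Slc7a11 overlapped between groups, and after scaling Glrx stood slightly lower in cKO hearts, with overlap.

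Glutamate-cysteine ligase makes the first and rate-limiting step of glutathione synthesis from a catalytic and a modifier subunit. Gclm (ENSMUSG00000028124.16, chr3:122245557-122270732, plus strand) encodes the modifier and Gclc (ENSMUSG00000032350.10, chr9:77754535-77794485, plus strand) the catalytic subunit. Gclm measured 112, 96.3, 101, 79.2 and 107 TPM in cKO replicates 1, 3, 5, 6 and 7, against 7.94, 9.62, 8.85, 10.1 and 8.85 TPM in control replicates 4, 6, 8, 9 and 13. Every cKO heart stood far above every control heart, at 10.9 times the control mean as deposited and 6.51 times relative to the median gene (log2 difference 2.60 ± 0.08 SE). Gclc measured 10.6, 11.8, 10.9, 9.18 and 10.9 TPM in those cKO libraries and 3.33, 3.98, 3.92, 3.67 and 3.40 TPM in those control libraries. The groups were also apart for Gclc, but by less, at 2.92 times as deposited and 1.74 times relative to the median gene (log2 difference 0.69 ± 0.07 SE). Gclc was the steadiest member among control hearts after scaling, with a coefficient of variation of 1.99%.

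The balance of the subunits can be read as a ratio within a library, which no scaling of that library can alter. There were 10.6, 8.14, 9.27, 8.62 and 9.85 Gclm transcripts per Gclc transcript in cKO replicates 1, 3, 5, 6 and 7. Control replicates 4, 6, 8, 9 and 13 had ratios of 2.38, 2.41, 2.26, 2.76 and 2.60. The mean ratio was 9.29 ± 0.96 in cKO and 2.48 ± 0.20 in controls (SD, n = 5 each), so Gclm transcripts outnumbered Gclc transcripts in both groups, by more in cKO hearts. Protein was not measured.

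Gss (ENSMUSG00000027610.18, chr2:155563181-155592810, minus strand) encodes glutathione synthetase, which adds glycine in the final step. Its levels were 18.1, 15.3, 15.5, 13.2 and 17.3 TPM in cKO replicates 1, 3, 5, 6 and 7, and 5.03, 6.61, 5.61, 5.57 and 4.21 TPM in control replicates 4, 6, 8, 9 and 13. The groups were apart by about the same factor as for Gclc, 2.94 times as deposited and 1.76 times relative to the median gene (log2 difference 0.74 ± 0.08 SE). Gss overlaps the gene Acss2 on the opposite strand, which had 12.3 ± 1.41 TPM in cKO and 9.64 ± 0.51 TPM in control hearts (SD, n = 5 each). The sources used here do not say whether reads were counted by strand. The share of Acss2 reads in Gss is therefore not known. Other genes that overlap a member (an antisense transcript covering Txnip among them) stayed under 2 TPM in every library where they were listed.

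Slc7a11 (ENSMUSG00000027737.11, chr3:49892526-50443614, minus strand), the cystine carrier subunit of the system xc- antiporter, was the scarcest member. It measured 0.746, 0.557, 0.373, 0.365 and 0.428 TPM in cKO replicates 1, 3, 5, 6 and 7, and 0.181, 0.153, 0.0659, 0.238 and 0.423 TPM in control replicates 4, 6, 8, 9 and 13. Control replicate 13 exceeded 2 of the cKO hearts, and after scaling, at 0.602, it exceeded all 5, the highest of which was at 0.537, so the groups overlapped on both scales. Slc7a11 never reached 1 TPM and was not in the fit. Its partner Slc3a2, the heavy chain of the antiporter and of other amino acid carriers, was abundant by comparison, at 37.7 ± 5.67 TPM in cKO and 26.2 ± 1.93 TPM in control hearts (SD, n = 5 each). As deposited Slc3a2 was called higher, by 0.50 on the log2 scale, and after scaling its log2 difference was -0.22 (adjusted p = 0.0403 by limma, from 0.00708 to 0.598 over the alternatives tried). That call was lost without cKO replicate 3, 6 or 7 and without control replicate 4, 8, 9 or 13, and also with no filter, with 75th percentile scaling and with no variance trend. Slc3a2 stood at 0.07 when TPM was closed again without mt- genes.

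Gsr (ENSMUSG00000031584.17, chr8:33652523-33698163, plus strand) encodes glutathione reductase. It measured 40.8, 37.9, 43.0, 30.9 and 44.7 TPM in cKO replicates 1, 3, 5, 6 and 7. In control replicates 4, 6, 8, 9 and 13 it measured 5.12, 7.34, 8.15, 8.49 and 7.38 TPM. Its difference lay between those of the ligase subunits, at 5.41 times as deposited and 3.24 times relative to the median gene (log2 difference 1.60 ± 0.11 SE). Per Gss transcript there were 2.49 ± 0.21 Gsr transcripts in cKO and 1.37 ± 0.30 in controls (SD, n = 5 each), again without overlap, so transcripts of the recycling enzyme were further from control than those of the synthetase.

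Glrx (ENSMUSG00000021591.9, chr13:75839868-75850154, plus strand) encodes glutaredoxin 1, which uses glutathione to remove it from protein thiols. It stood apart from the other 8 tested members. Glrx measured 36.0, 34.4, 39.8, 38.8 and 43.5 TPM in cKO replicates 1, 3, 5, 6 and 7, and 24.6, 31.6, 30.6, 28.9 and 25.0 TPM in control replicates 4, 6, 8, 9 and 13, which is 1.37 times as deposited. Its log2 difference of 0.44 lay under the median of all tested genes, 0.63. Relative to the median gene it measured 25.9, 26.1, 29.6, 32.3 and 34.5 in cKO and 34.4, 37.4, 36.1, 36.6 and 35.6 in control hearts in the same order, a log2 difference of -0.28 ± 0.08 SE. The direction for Glrx thus rests on the scale: it was higher as deposited, lower relative to the median gene, and at 0.01 when TPM was closed again without mt- genes.

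**Figure D2:**
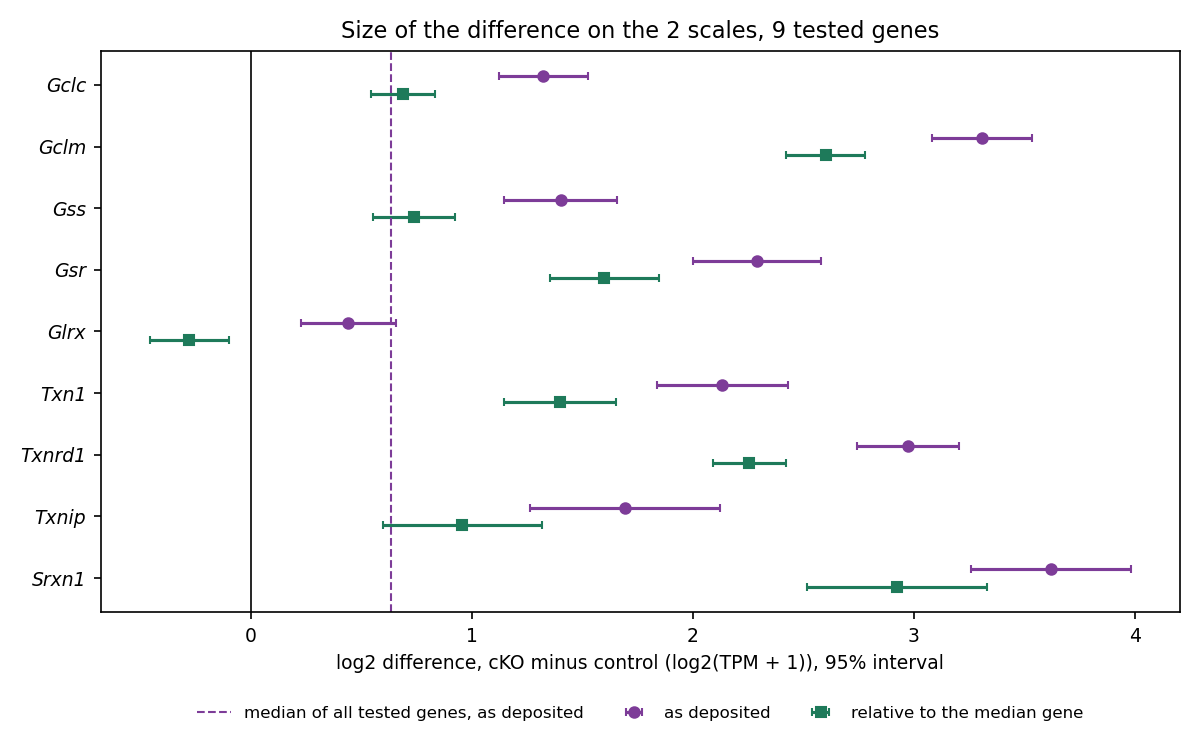
Log2 difference of cKO minus control, with its 95% interval from limma, for the 9 tested genes as deposited (circles) and relative to the median gene (squares). The dashed line is the median of all tested genes as deposited, 0.63, and applies to the circles only. For the squares that median is 0.01. Glrx is below the median of its scale in both cases, and Srxn1, Gclm and Txnrd1 are farthest from 0.

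Txn1 (ENSMUSG00000028367.6, chr4:57943373-57956411, minus strand), cytosolic thioredoxin, was the second most abundant member in both groups. It measured 224, 211, 252, 202 and 297 TPM in cKO replicates 1, 3, 5, 6 and 7, and 47.9, 66.1, 53.4, 58.6 and 41.4 TPM in control replicates 4, 6, 8, 9 and 13. All cKO hearts were above all control hearts, at 4.44 times as deposited and 2.68 times relative to the median gene (log2 difference 1.40 ± 0.12 SE). Txnrd1 (ENSMUSG00000020250.12, chr10:82833951-82897712, plus strand) encodes the cytosolic selenoprotein that reduces thioredoxin. It measured 143, 122, 148, 103 and 131 TPM in the cKO libraries and 14.8, 15.6, 16.4, 17.0 and 13.7 TPM in the control libraries. It was 8.35 times as high as deposited and 4.98 times relative to the median gene (log2 difference 2.26 ± 0.08 SE). Transcripts of the reductase were further from control than those of its substrate, with 0.550 ± 0.076 Txnrd1 transcripts per Txn1 transcript in cKO and 0.294 ± 0.036 in controls (SD, n = 5 each).

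The mitochondrial counterparts were not members. Txn2, mitochondrial thioredoxin, had 92.1 ± 9.05 TPM in cKO and 84.7 ± 9.60 TPM in control hearts (SD, n = 5 each) and fell by 0.61 after scaling (limma adjusted p = 0.000312, from 0.000169 to 0.00414 over the alternatives), while as deposited it stood at 0.12 and was not called. Txnrd2, mitochondrial thioredoxin reductase, had 19.1 ± 1.19 TPM in cKO and 11.5 ± 2.01 TPM in control hearts (SD, n = 5 each). Its scaled log2 difference was 0.01 (adjusted p = 0.950 by limma). With TPM closed again without mt- genes Txnrd2 stood at 0.29 and was called, where the median of all tested genes was itself 0.28. Transcripts of the cytosolic form outnumbered those of the mitochondrial one in cKO hearts, with 2.58 ± 0.36 Txn1 transcripts per Txn2 transcript, against 0.629 ± 0.051 in control hearts, where Txn2 was the more abundant. For the reductases there were 6.77 ± 0.93 Txnrd1 transcripts per Txnrd2 transcript in cKO and 1.37 ± 0.18 in controls (SD, n = 5 each).

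Txnip (ENSMUSG00000038393.15, chr3:96557957-96561883, plus strand), the thioredoxin-binding alpha arrestin that also limits glucose uptake, was the most abundant member in both groups. Its levels were 439, 409, 361, 327 and 351 TPM in cKO replicates 1, 3, 5, 6 and 7, against 117, 167, 142, 111 and 65.7 TPM in control replicates 4, 6, 8, 9 and 13. The control hearts were spread widely, with replicate 13 lowest, and all lay below the cKO hearts, which were at 3.13 times as deposited and 1.89 times relative to the median gene (log2 difference 0.96 ± 0.16 SE). Per Txn1 transcript there were 1.63 ± 0.33 Txnip transcripts in cKO and 2.22 ± 0.46 in controls (SD, n = 5 each). Inhibitor and thioredoxin were both higher, and the ranges of their ratio, 1.18 to 1.96 in cKO and 1.59 to 2.66 in control hearts, crossed. This was the 1 ratio of the 8 computed whose groups overlapped. Each ratio holds a gene chosen with this contrast known, and the share of other gene pairs without overlap was not computed. Nothing is therefore read from this count.

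Srxn1 (ENSMUSG00000032802.9, chr2:152105516-152111376, plus strand) encodes sulfiredoxin, which restores peroxiredoxins that have been over-oxidised. It measured 106, 86.2, 103, 69.7 and 104 TPM in cKO replicates 1, 3, 5, 6 and 7, and 8.86, 5.22, 4.91, 8.66 and 6.33 TPM in control replicates 4, 6, 8, 9 and 13. The difference was the largest of the 9 tested members, at 13.8 times as deposited and 8.10 times relative to the median gene (log2 difference 2.92 ± 0.19 SE), rank 21 of the 13282 tested genes. Gclm ranked 35 and Txnrd1 60. Of the peroxiredoxins, the cytosolic Prdx1 had 452 ± 65.8 TPM in cKO and 162 ± 29.1 TPM in control hearts (SD, n = 5 each) and rose by 0.74 after scaling (limma adjusted p = 0.000253). Prdx4, of the endoplasmic reticulum, rose by 0.41 (limma adjusted p = 0.00959), whereas mitochondrial Prdx3 fell by 0.83 (limma adjusted p = 2.17e-05) and cytosolic Prdx2 fell by 0.35 (limma adjusted p = 0.00750), the last not being called when TPM was closed again without mt- genes. As deposited Prdx3 stood at -0.09 and was not called, and Prdx2 was called higher, by 0.39. There were 0.209 ± 0.035 Srxn1 transcripts per Prdx1 transcript in cKO and 0.0437 ± 0.0163 in controls (SD, n = 5 each).

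**Figure D3:**
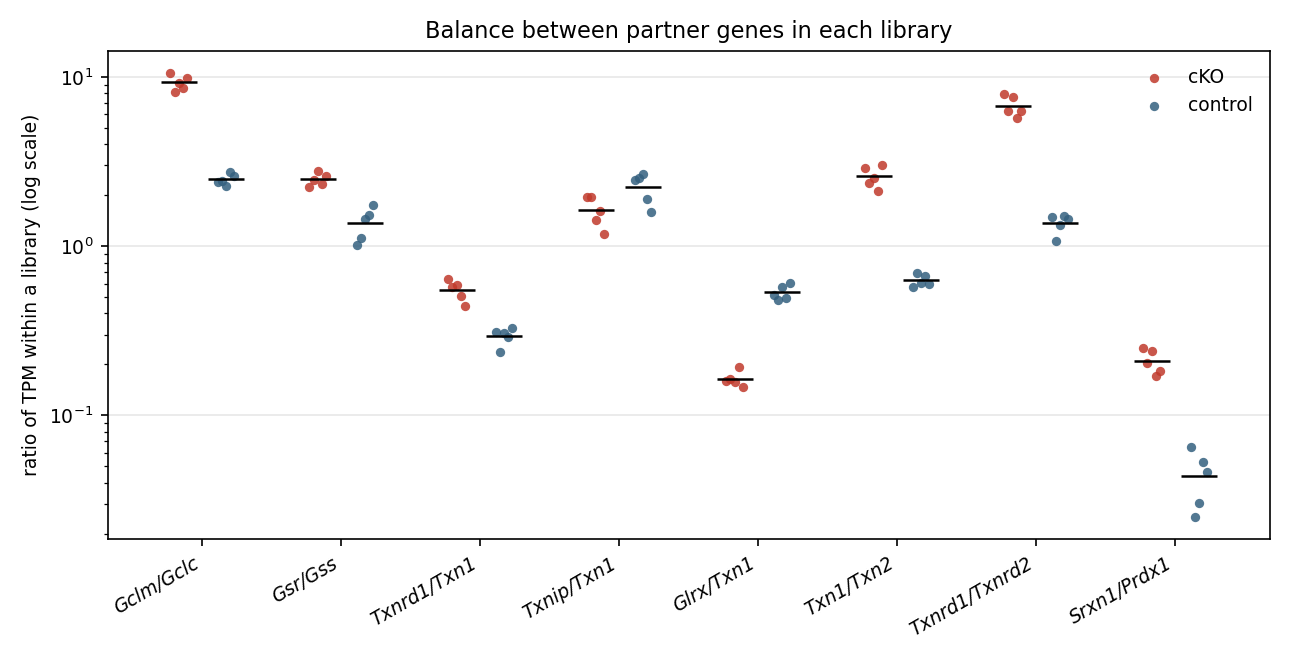
Ratio of the TPM values of partner genes within each library, on a log axis, for 5 cKO (red) and 5 control (blue) hearts, with group means as bars. The ratios do not depend on how a library is scaled. Only Txnip to Txn1 overlapped between groups, and Glrx to Txn1 was lower in cKO hearts (0.164 ± 0.017 against 0.532 ± 0.054, SD). Each ratio holds a gene chosen with this contrast known, so nothing is read from how many overlapped.

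By level, the order in cKO hearts was Txnip, Txn1, Txnrd1, Gclm, Srxn1, Gsr, Glrx, Gss, Gclc and Slc7a11. In control hearts it was Txnip, Txn1, Glrx, Txnrd1, Gclm, Gsr, Srxn1, Gss, Gclc and Slc7a11. Among cKO hearts the ranges of some neighbours in this order overlapped: Txnrd1 with Gclm, Gclm (99.1 ± 12.7 TPM) with Srxn1 (93.9 ± 15.7 TPM), and Gsr (39.4 ± 5.43 TPM) with Glrx (38.5 ± 3.54 TPM). Among control hearts Gclm overlapped with Gsr (7.29 ± 1.31 TPM), Gsr with Srxn1 (6.80 ± 1.87 TPM), Srxn1 with Gss, and, through replicate 13 alone, Txnip with Txn1. Glrx held rank 7 in cKO and rank 3 in control hearts. TPM is per length, which lets levels of different genes be set side by side, but the gene lengths used are not given in the sources. The order of levels, and which gene of a ratio is the more abundant, rest on those lengths.

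Among cKO hearts, replicate 6 was the lowest library for 9 of the 10 genes as deposited, and it also had the smallest scaling factor of the cKO libraries. After scaling it was the lowest for 6 of the 10, and cKO replicate 7 was the highest for 6. Relative to the median gene, the values of Gclm, Gsr, Txnrd1 and Srxn1 in cKO replicates 3 and 6, the libraries with Ddx3y, lay below those in the 3 with Xist, whereas those of the other 6 members overlapped between these libraries. Srxn1, for example, measured 57.9 and 65.4 there and between 76.6 and 82.3 in the others. How many of all tested genes part in the same way is not given here, so nothing is read from this split. All 5 control libraries had Ddx3y RNA, with Srxn1 between 5.79 and 12.4. Without the 3 cKO libraries with Xist, the log2 difference of Srxn1 was 2.70, that of Gclm 2.47 and that of Txnrd1 2.11, and 8 members were called higher, beside 1673 of the 13282 tested genes.

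Profiles most like those of the members were sought among the other tested genes. Predicted gene models, clone names, pseudogenes and immunoglobulin genes were left out, so a nearer profile among those would not be named. Likeness was the root mean square difference of log2 values relative to the median gene over 10 libraries, after each gene's mean was taken off. Tspan17 (0.12) and the autophagy receptor gene Sqstm1 (0.12) were nearest to Gclm, Ephx1 (0.10) and Pgd (0.12) to Txnrd1, and Mgst1 (0.26) and Mllt11 (0.27) to Srxn1. Ephx1 encodes microsomal epoxide hydrolase, Pgd a dehydrogenase of the pentose phosphate pathway that yields NADPH, and Mgst1 a microsomal glutathione transferase. The genes nearest to Gsr were Csf1r (0.14), the macrophage growth factor receptor, and Pdlim7 (0.15). Txn1 was nearest to Gbe1 (0.08) and Bnip3 (0.13), Gclc to Sumf1 (0.06) and Hsd17b12 (0.06), Gss to Ctnnb1 (0.05) and Tmem176a (0.06), Txnip to Mreg (0.15) and Nfkbie (0.18), and Glrx to Mcu (0.04) and Mff (0.05), which encode the mitochondrial calcium uniporter and a fission factor. Libraries of both groups entered together, so likeness includes the size of the group difference on which the members were chosen. Scaled log2 differences were 2.52 for Tspan17 and 2.68 for Sqstm1, beside 2.60 for Gclm. This likeness is a description with no test, and shared control of the genes was not tested.

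The other genes of glutathione turnover and cysteine supply were called in both directions after scaling. Of 26 listed, 22 were tested, and after scaling 4 rose and 8 fell while 10 missed the threshold, with a median of -0.12 (all tested genes: 20.8% higher, 20.8% lower, median 0.01). As deposited 16 rose and 0 fell, with a median of 0.55, beside 76.5% rising, 3.46% falling and a median of 0.63 over all tested genes. Slc1a5, a carrier of neutral amino acids, rose by 0.41 (limma adjusted p = 0.00234), together with Slc1a4, the transporter gene Abcc1 and the omega class transferase gene Gsto1. Chac2, which breaks glutathione down, fell by 0.63 (limma adjusted p = 0.000325), Hagh, the second glyoxalase, by 0.63 (limma adjusted p = 0.000357), and Slc25a40, a mitochondrial carrier, by 0.43 (limma adjusted p = 0.00177). As deposited these last 3 stood at 0.01, 0.09 and 0.21 and were not called. When TPM was closed again without mt- genes, 7 rose and 3 fell, where of all tested genes 6064 rose and 1373 fell instead of 2763 and 2766, and Slc25a40 was no longer called. Without the 3 cKO libraries with Xist 1 rose and 5 fell, and neither Slc1a5 (adjusted p = 0.0641 by limma) nor Slc25a40 (adjusted p = 0.0759 by limma) was called. The cysteine-making genes Cbs and Cth were under the filter, with Cbs at 0.633 ± 0.806 TPM in cKO and 0.174 ± 0.107 TPM in control hearts and Cth at 0.142 ± 0.115 TPM in cKO and 0.156 ± 0.084 TPM in control hearts (SD, n = 5 each).

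Among 32 relatives and substrates of thioredoxin and glutaredoxin, all tested, 5 rose and 10 fell after scaling while 17 missed the threshold, with a median of -0.11. As deposited 25 rose and 1 fell, with a median of 0.60. Of all tested genes, 20.8% rose and 20.8% fell after scaling, and as deposited 76.5% rose and 3.46% fell. Txndc5, a disulfide isomerase of the endoplasmic reticulum, rose by 0.63 (limma adjusted p = 1.91e-05). Msrb1, a methionine sulfoxide reductase, fell by 1.21 (limma adjusted p = 1.39e-05) and was lower as deposited too, at 42.3 ± 6.98 TPM in cKO and 59.3 ± 5.83 TPM in control hearts (SD, n = 5 each). When TPM was closed again without mt- genes, 16 of these 32 rose and 5 fell, where 6064 of all 13264 tested genes rose and 1373 fell. Of the alpha arrestins related to Txnip, Arrdc1 rose by 0.32 (limma adjusted p = 0.0143) and Arrdc2 fell by 0.52 (limma adjusted p = 0.0124) after scaling, the second standing at 0.06, not called, as deposited. Arrdc4, the relative that shares its glucose response with Txnip, had a scaled log2 difference of 0.25 (adjusted p = 0.202 by limma) and Arrdc3 one of 0.19 (adjusted p = 0.0958 by limma), and both were called higher with TPM closed again without mt- genes. Without the 3 cKO libraries with Xist Arrdc1 was not called (adjusted p = 0.104 by limma), and with TPM closed again without mt- genes Arrdc2 was not (adjusted p = 0.111 by limma).

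**Figure D4:**
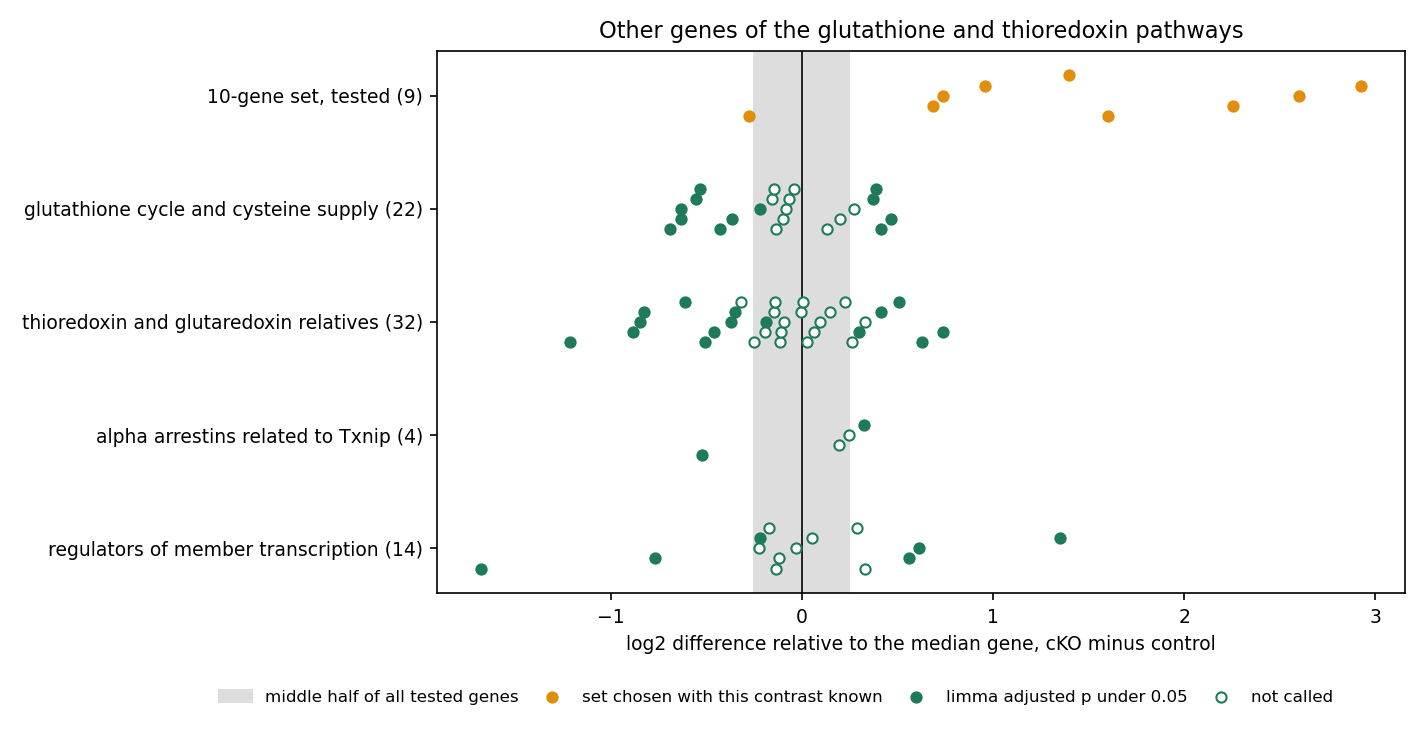
Log2 difference relative to the median gene, cKO minus control, for the tested genes of the 10-gene set (orange) and of 4 related lists (green; filled where limma's adjusted p was under 0.05). The grey band spans the quartiles of all tested genes, -0.25 to 0.25. The related lists run from -1.68 (Atf3) to 1.35 (Mafg), and the set from -0.28 (Glrx) to 2.92 (Srxn1). The set was chosen with this contrast known, so nothing is read from its place beside the lists.

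Of 14 genes listed as regulators, 3 rose and 3 fell after scaling, and 8 missed the threshold, whereas as deposited 12 rose and 1 fell. Of all tested genes, 20.8% rose and 20.8% fell after scaling, and 76.5% rose and 3.46% fell as deposited, so both counts lay near the background. Mafg, a small MAF protein that pairs with NRF2, had 49.7 ± 11.6 TPM in cKO and 11.0 ± 1.85 TPM in control hearts (SD, n = 5 each). After scaling it rose by 1.35 (limma adjusted p = 1.06e-05). Keap1 rose by 0.61 (limma adjusted p = 0.00156) and Bach1, a repressor at the same elements, by 0.56 (limma adjusted p = 0.000304). Nfe2l2, which encodes NRF2, had 39.0 ± 4.12 TPM in cKO and 27.3 ± 2.88 TPM in control hearts (SD, n = 5 each), higher as deposited by 0.50 but with a scaled log2 difference of -0.22 (limma adjusted p = 0.0221, from 0.00367 to 0.418 over the alternatives, the highest without mt- genes, where it stood at 0.07). Nfe2l2 also missed the call without cKO replicate 3, cKO replicate 6 or control replicate 8. Atf3 fell by 1.68 after scaling (limma adjusted p = 7.59e-06). As deposited Atf3 had 4.71 ± 1.25 TPM in cKO and 10.8 ± 2.49 TPM in control hearts (SD, n = 5 each). That was a log2 difference of -1.04, with overlap between the groups.

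Markers of several other cell types differed beside these results. Of 11 tested macrophage markers, 11 rose relative to the median gene (median 1.54), with a summed level of 351 to 512 in cKO and 107 to 123 in control libraries. Csf1r had 28.3 ± 5.68 TPM in cKO and 5.34 ± 1.00 TPM in control hearts (SD, n = 5 each), and none of the 12 listed macrophage markers was at 0 throughout. All 8 fibroblast markers rose (median 0.57, summed level 1520 to 1838 in cKO and 1046 to 1358 in control libraries), and all 9 endothelial markers fell (median -0.55, summed level 724 to 996 in cKO and 1264 to 1530 in control libraries). As deposited 11 of 11 macrophage and 8 of 8 fibroblast markers rose, and none of the 9 endothelial markers was called (median 0.15). Of all tested genes, 20.8% rose and 20.8% fell after scaling, and 76.5% rose and 3.46% fell as deposited. Of 7 smooth muscle and pericyte markers 2 rose and 3 fell after scaling, and of 2 tested neutrophil markers 0 were called. Of 8 cardiomyocyte markers, 7 fell after scaling, and as deposited 2 rose and 3 fell. Erythroid markers summed to between 1319 and 7182 in cKO and between 4357 and 7004 in control libraries, with overlap. In whole hearts, fewer cells of a type and less RNA per cell cannot be told apart, and the part of these cell types in the members' differences was not tested.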

How the data were processed

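RNA of 10 whole mouse hearts (5 cKO, 5 control) was measured by RNA-seq of libraries made from total RNA (VAHTS Universal V10 kit, as the protocols in the labels say). The authors deposited 1 table of TPM values, which divide reads by gene length and close each library to 1000000. The submitters' processing notes name, with no role or order, mm10, STAR 2.7.1, HTSeq 0.11.2, DESeq2 1.22.2, Trimmomatic 0.32, FastQC 0.11.7, Picard 1.96 and bcl2fastq. Of the annotation, gene lengths and strand setting the sources used here say nothing. TPM keeps no depth, so the reads behind a value are unknown and no counting intervals are given. No 2 libraries were identical, and the labels name 5 mice per group.

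Genes with at least 1 TPM in at least 5 libraries (13282) were tested as log2(TPM + 1), which understates changes of low genes, with limma 3.58.1 in R 4.3.3 (mean-variance trend, two-sided, Benjamini-Hochberg over all tested genes). Calls used an adjusted p under 0.05. Size factors were medians of ratios over 16393 genes. For Chmp4b, an exact permutation test (two-sided) ran over all 252 arrangements. The fit was checked on simulated data. Gene IDs were matched to GENCODE M21 without version (92.1% of the table, all 10 members). Promoters came from RefSeq (GRCm38.p6); overlapping genes from GENCODE M21. Promoters of Gclc and Gsr were not used here.

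The members and all gene lists were chosen with earlier results of these data known. Named were the members, Chmp4b, the direct partners of members, the 4 genes of each related list with the smallest adjusted p relative to the median gene, and the 2 nearest profiles of each member; any other gene was named after its values were seen. Alternatives changed the filter, the pseudocount, the scaling or the variance model, weighted the libraries, added Ddx3y as a covariate or left out 1 library; leaving out the 3 cKO libraries with Xist was added after seeing the data.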

Additional observations from a re-analysis of the deposited data

Results flagged for a closer look

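In 6 of 148 groups of 5 libraries examined, 1 library stood far from the other 4, by a gap over Dixon's critical value at 95%, which chance alone passes in about 1 in 20. None of them was a member. Prdx1 was at 569 TPM in cKO replicate 7, against 410 to 430 TPM in the other cKO hearts, and at 452 against 308 to 341 relative to the median gene. Atf3 was at 6.45 TPM in control replicate 13, against 10.9 to 12.3 TPM in the other control hearts. Relative to the median gene, control replicate 6 was low for Slc3a2 (30.4, against 34.0 to 35.3) and high for Txnrd2 (17.1, against 13.5 to 14.6). Control replicate 4 was low for Prdx4 (27.7, against 31.7 to 32.5).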

How the results depend on the processing

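Limma called 9 members higher as deposited with every single library left out, and 8 relative to the median gene. Under no alternative did the second count move from 8, and the first was 10 with no filter, where Slc7a11 entered, and 8 where Glrx was lost (75th percentile and no mt- genes). Glrx stood at -0.26 when scaled to the 75th percentile. Relative to the median gene it stood at -0.30 with Ddx3y as a covariate, and there it was no longer called lower. With TPM closed again without mt- genes, which was not scaled to the median gene, Glrx stood at 0.0077. Of all genes, 10620 were called as deposited (5593 when scaled to the 75th percentile; 10230 to 10588 with 1 library left out), and 5529 relative to the median gene (3477 without the 3 cKO libraries with Xist, 5030 to 5468 with 1 library left out). Without those 3, 6 glutathione turnover genes were called instead of 12. With TPM closed again without mt- genes, also not scaled to the median gene, Slc3a2 stood at 0.066 and Nfe2l2 at 0.067. Both stood at -0.22 relative to the median gene. The median of all tested genes without mt- genes was 0.28, so both lay below it. Chmp4b as deposited lay between -0.38 and -0.21 with 1 library left out, and its exact permutation p was above 0.05 in 8 of those 10 cases. Of 799 values of single named genes under alternatives, 771 kept their call or lack of one, and 21 lost the call with their sign kept. Another 3 gained the call, and 4 that had been called changed sign. Of these 4, only Glrx as deposited, scaled to the 75th percentile, was still called. The 771 include Txnrd2 without cKO replicate 7, not called, at -0.03 against 0.01 relative to the median gene with all libraries. No paired analysis was possible because the groups share 1 replicate number only. With unknown depth, the precision of low values such as those of Slc7a11 cannot be stated.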
